A study of Mus musculus with 6 samples.

Results

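The genes of the proteasome were followed in a mouse neural stem cell line that lacks Cbfa2t2 or carries the histone variant H3.3 with lysine 27 replaced by methionine. Members were the protein-coding genes whose names begin with Psma, Psmb, Psmc, Psmd, Psme, Psmf or Psmg and a digit, and that were listed in both deposited expression tables. There were 47 of them among the 14667 genes in at least 1 table. By role they comprised 7 genes of the alpha ring and 7 constitutive genes of the beta ring of the 20S core, 2 genes of immunoproteasome subunits, and 6 ATPase and 11 non-ATPase subunits of the 19S particle. Another 3 encode assembly chaperones of the 19S particle, 4 assembly chaperones of the 20S core, 5 alternative activators and 1 the 20S-binding protein PI31. The last gene, Psmc3ip, encodes a meiotic recombination factor, has no role in the proteasome and entered by its name alone. Psma8, Psmb8 and Psmb11 carry names of the same kind but are not listed in the tables and are not analysed here.

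Poly(A) RNA was sequenced in 6 libraries of NE-4C, a p53-deficient line of the mouse brain, with 2 libraries in each of 3 groups. In all groups H3f3a, a gene for H3.3, was knocked out and an HA-tagged H3.3 was expressed in its place. Cbfa2t2_KO cells had an additional knockout of the corepressor gene Cbfa2t2 and carried the wild-type tagged protein, H3.3K27M cells carried the mutant tagged protein with Cbfa2t2 left in place, and H3.3WT cells carried the wild-type tagged protein with Cbfa2t2 left in place. The cells are a cultured line grown with serum, and the sources used here give neither the promoter of the transgene nor the number of clones behind a group. Each comparison asked which genes had more or less RNA in one line than in another.

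The proteasome is the protease that degrades most ubiquitin-tagged proteins of the cell. Its 20S core is a stack of 2 outer alpha rings, which gate the entry, and 2 inner beta rings, which hold the catalytic sites, and the 19S particle on its ends binds ubiquitin chains, removes them and unfolds the substrate with a ring of ATPases. Activators such as PA28 and PA200 can take the place of the 19S particle, and interferon exchanges the catalytic subunits for those of the immunoproteasome, which favours peptides for antigen presentation. The genes of the core and of the 19S particle are known to be raised together by the transcription factor NFE2L1 when proteasome activity falls short.

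Levels are FPKM as deposited, fragments counted per length of transcript and per depth of the library, so that levels of different genes can be compared per length. The tables hold no read counts and the depth is unknown. The sum of all FPKM lay between 363654 and 419389 in each library, with H3.3K27M replicate 2 the highest, and H3.3WT values were the same in both tables. The H3.3K27M columns are headed by the letter M alone and were matched to the group by it. Cbfa2t2 stood at 1.02 and 0.769 FPKM in the libraries labelled Cbfa2t2_KO, 2.02 and 0.855 FPKM in H3.3K27M, and 1.38 and 1.35 FPKM in H3.3WT. Its change in Cbfa2t2_KO against H3.3WT did not pass the test (log2 change -0.32 ± 0.16, limma, Benjamini-Hochberg adjusted p = 0.153), and where the edit lies in the gene is not known here. H3f3a, knocked out in all groups, stood at 82.1 and 66.3 FPKM in Cbfa2t2_KO, 77.3 and 66.8 FPKM in H3.3K27M and 131 and 181 FPKM in H3.3WT. It was lower in Cbfa2t2_KO (log2 change -1.05 ± 0.19, adjusted p = 0.00501) as well as in H3.3K27M (-1.09 ± 0.20, adjusted p = 0.00708), and whether RNA of the tagged H3.3 is counted there is not known. Of 12 neural stem and progenitor markers 10 were listed, among them Nes, Sox2, Sox3 and Vim, while Sox1 and Fabp7 were not. Their summed level was 136 to 141 FPKM in Cbfa2t2_KO, 159 to 173 FPKM in H3.3K27M and 207 to 215 FPKM in H3.3WT. The sum does not stand for each marker: of 8 tested, 2 rose and 4 fell in each line. Vim (log2 change 1.19 in Cbfa2t2_KO, 1.68 in H3.3K27M) and Prom1 (0.91, 0.99) rose in both lines and Nes (-0.80, -1.20) and Sox3 (-0.83, -0.82) fell in both, while Sox2 fell in Cbfa2t2_KO (-1.50) and did not pass in H3.3K27M (-0.11). Summed neuronal markers, 5 of 9 listed, stood at 136 to 151 FPKM in Cbfa2t2_KO, 77.5 to 82.2 FPKM in H3.3K27M and 77.9 to 79.4 FPKM in H3.3WT. Most of that sum was Tubb3, with 123 and 139 FPKM in Cbfa2t2_KO, 68.3 and 71.6 FPKM in H3.3K27M and 68.9 and 67.4 FPKM in H3.3WT, which rose in Cbfa2t2_KO (log2 change 0.93, adjusted p = 0.00223). Elavl3 (-0.56, adjusted p = 0.0473) and Rbfox3 (-0.74, adjusted p = 0.0153) fell in H3.3K27M and did not pass in Cbfa2t2_KO (-0.33 and -0.34). The part of these markers in the results on the proteasome was not tested, and in bulk RNA fewer cells of a kind cannot be told apart from less RNA per cell. Whether the paired libraries of a group are separate cultures is not stated, and the spread that the p-values rest on may be technical.

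Proteasome genes were among the more highly expressed genes in all 3 lines. Their median level was 43.2 and 44.0 FPKM in Cbfa2t2_KO, 38.5 and 48.2 FPKM in H3.3K27M and 32.9 and 36.4 FPKM in H3.3WT. The median of all genes ran from 4.06 to 4.72 FPKM, and 45 of the 47 members lay above it in every library. The members together made up 0.882% and 0.905% of summed FPKM in Cbfa2t2_KO, 0.751% and 0.796% in H3.3K27M and 0.729% and 0.745% in H3.3WT. Both Cbfa2t2_KO libraries held a larger share than any other library.

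Although the core holds its 14 kinds of subunit in equal number, their RNA levels were far from equal. Psma3 was the lowest of the 14 in every library, at 11.5 to 17.4 FPKM. The highest was Psmb6 in both Cbfa2t2_KO libraries (312 and 355 FPKM) and Psmb1 in both H3.3K27M libraries (217 and 264 FPKM), while in H3.3WT it was Psmb5 in replicate 1 (244 FPKM) and Psmb1 in replicate 2 (274 FPKM). The highest member exceeded the lowest 24.6-fold and 30.9-fold in Cbfa2t2_KO, 15.1-fold and 15.2-fold in H3.3K27M, and 20.4-fold and 20.3-fold in H3.3WT. Among the 17 subunits of the 19S particle, Psmc5 was the highest in Cbfa2t2_KO and H3.3K27M, and Psmc3 in H3.3WT. Psma3 overlaps a transcript on the other strand, and the sources used here do not say whether the libraries keep strand. Psmb7, Psmc3, Psmd13, Psme1 and Psmc3ip also overlap other listed genes, so reads at these places may belong to either.

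**Figure D1:**
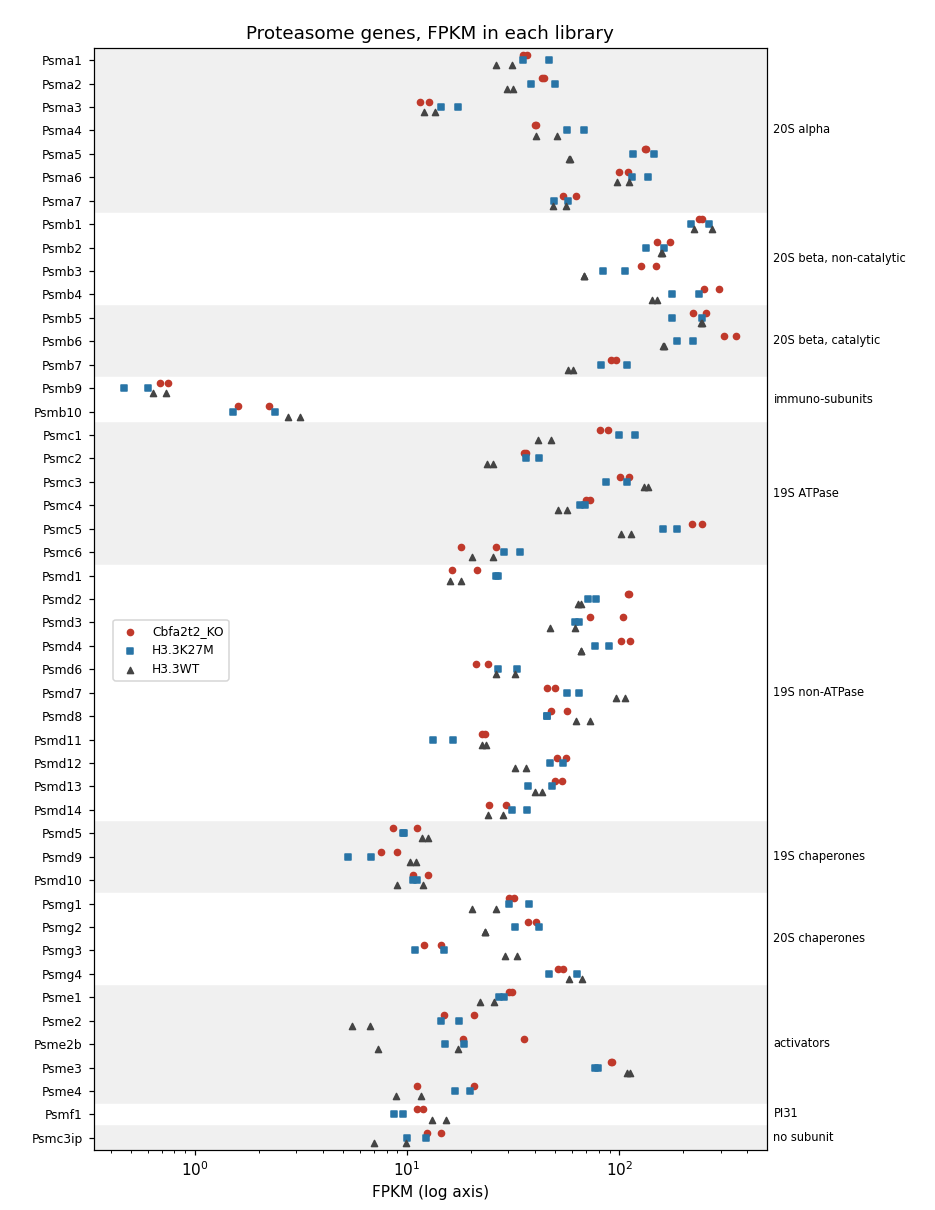
FPKM of the 47 proteasome genes in each library on a log axis, grouped by role from the 20S alpha ring at the top to Psmc3ip at the bottom. Red circles are Cbfa2t2_KO, blue squares H3.3K27M and grey triangles H3.3WT, 1 symbol per library. The immunoproteasome genes Psmb9 and Psmb10 lie below 4 FPKM, and the rest lie above it.

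Against H3.3WT, 17 members rose and 2 fell in Cbfa2t2_KO, and 10 rose and 6 fell in H3.3K27M, of 46 tested. The 46 and the 17 include Psmc3ip, which has no role in the proteasome. A gene was called where limma's Benjamini-Hochberg adjusted p was under 0.05, with adjustment over all genes of a comparison. By that rule 34.6% of all genes tested passed in Cbfa2t2_KO and 26.2% in H3.3K27M. Psmb9 was not tested, because its mean was under 1 FPKM. Among all genes tested in Cbfa2t2_KO, 13.1% rose and 21.5% fell. The share of members that rose, 37.0%, was larger than that of all genes, and the share that fell, 4.35%, was smaller. In H3.3K27M, 8.42% of all genes tested rose and 17.8% fell, against 21.7% and 13.0% of the members. Libraries lay above H3.3WT without overlap for 22 members in Cbfa2t2_KO (28.5% of all genes) and 26 in H3.3K27M (25.1% of all genes), and below it for 11 (42.0% of all genes) and 10 (41.3% of all genes). The median log2 change of the members was 0.23 in Cbfa2t2_KO and 0.31 in H3.3K27M, while that of all genes tested was -0.11 and -0.12. The 2 comparisons share the H3.3WT libraries, and a gene that is high or low there moves in both.

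Of the 46 genes, 8 were higher in both lines than in H3.3WT and 2 were lower in both. The 8 genes were Psma5 and Psmb7 of the core, the ATPases Psmc1, Psmc2 and Psmc5, the 19S lid subunit Psmd12, the activator subunit Psme2 and the assembly chaperone Psmg2. The 2 genes were the 19S lid subunit Psmd7 and the assembly chaperone Psmg3. Another 9 passed as higher in Cbfa2t2_KO and not in H3.3K27M, 2 as higher and 4 as lower in H3.3K27M and not in Cbfa2t2_KO, and 21 passed in neither. No gene was higher in 1 line and lower in the other. Shared calls were not counted over all genes, and the H3.3WT libraries common to both comparisons favour calls of the same sign. These counts therefore describe the members and do not set them apart from other genes.

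Many of the calls depended on single libraries. Of the 19 called genes in Cbfa2t2_KO, 11 stayed past the threshold under all 13 other ways of processing tried, and of the 16 in H3.3K27M 4 did. The 11 were Psma5, Psmb3, Psmb4, Psmb6, Psmc1, Psmc5, Psmd2, Psmd7, Psme2, Psmg2 and Psmg3. The 4 were Psma5, Psmc1, Psme2 and Psmg3, which are also among the 11. With 1 library left out, the median log2 change of the members was 0.22 to 0.29 in Cbfa2t2_KO and 0.23 to 0.41 in H3.3K27M. That of all genes tested was -0.15 to -0.069 in Cbfa2t2_KO and -0.16 to -0.088 in H3.3K27M. Calls over all genes were also fewer in each of these fits, so lost calls are not particular to the proteasome genes. Scaling the libraries to a median ratio moved the median log2 change of all genes, -0.11 and -0.12 as deposited, to 0.00045 and 0.0049. It moved the share of all calls that were higher to 50.8% in Cbfa2t2_KO (37.9% as deposited) and 48.9% in H3.3K27M (32.1% as deposited). Under that scaling 21 members rose and 2 fell in Cbfa2t2_KO, and 11 rose and 1 fell in H3.3K27M, beside 17.9% and 17.4% of all genes in Cbfa2t2_KO and 11.8% and 12.3% in H3.3K27M.

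**Figure D2:**
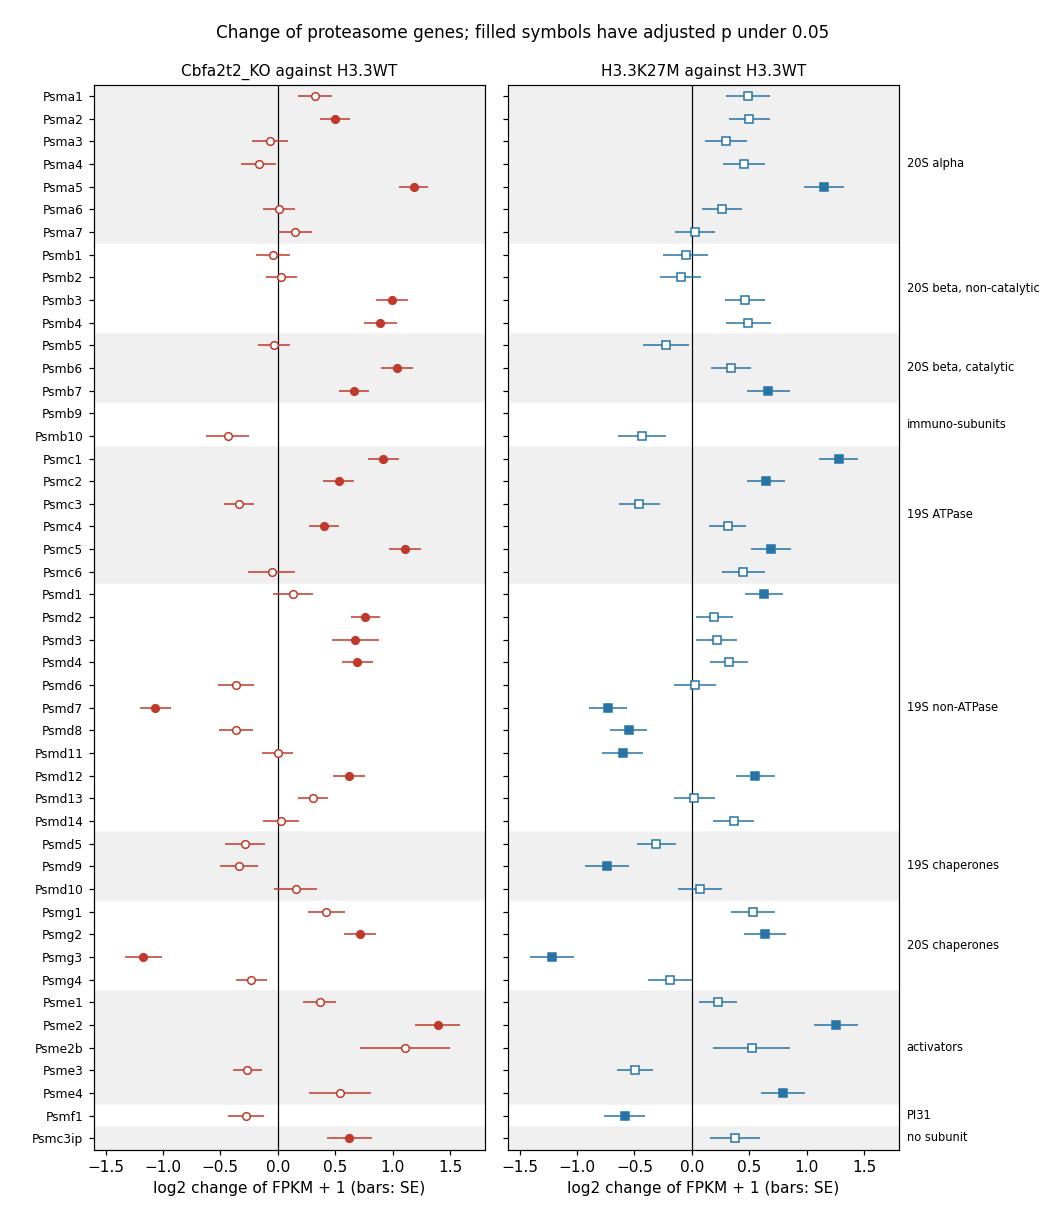
Log2 change of FPKM + 1 against H3.3WT for the 46 tested proteasome genes, Cbfa2t2_KO on the left and H3.3K27M on the right, with SE as bars and filled symbols for adjusted p under 0.05. Most filled symbols lie right of 0 in both panels, while Psmd7 and Psmg3 lie far to the left in both.

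In the alpha ring, 2 of 7 genes rose in Cbfa2t2_KO and 1 of 7 in H3.3K27M. The gene that rose in both was Psma5 (GRCm38 chromosome 3, 108256926 to 108279974, forward strand, 9 exons), which encodes the subunit alpha 5. It stood at 132 and 134 FPKM in Cbfa2t2_KO, 116 and 145 FPKM in H3.3K27M, and 58.5 and 57.7 FPKM in H3.3WT. Every Cbfa2t2_KO and H3.3K27M library was far above both H3.3WT libraries. The log2 change was 1.18 ± 0.13 in Cbfa2t2_KO (limma, adjusted p = 0.000943), with 1.15 ± 0.18 in H3.3K27M (adjusted p = 0.0038). Psma2, the subunit alpha 2, stood at 43.2 and 44.0 FPKM in Cbfa2t2_KO, 38.5 and 49.7 FPKM in H3.3K27M and 29.6 and 31.7 FPKM in H3.3WT. It rose in Cbfa2t2_KO (log2 change 0.50 ± 0.13, adjusted p = 0.0235, lost without any 1 of the 4 libraries, at most 0.108), and the same change of 0.50 ± 0.18 in H3.3K27M did not pass (adjusted p = 0.0722). Psma2 overlaps AW209491 on the same strand, and the reads of overlapping genes may have been split. The other 5 genes of the ring, Psma1, Psma3, Psma4, Psma6 and Psma7, passed in neither line, with log2 changes of -0.17 to 0.32 in Cbfa2t2_KO and 0.03 to 0.49 in H3.3K27M.

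Among the 4 structural genes of the beta ring, 2 rose in Cbfa2t2_KO and 0 in H3.3K27M, where 2 had an unadjusted limma p under 0.05. Psmb3 stood at 126 and 149 FPKM in Cbfa2t2_KO, 83.9 and 106 FPKM in H3.3K27M and 68.1 and 68.4 FPKM in H3.3WT. Psmb4 stood at 251 and 294 FPKM in Cbfa2t2_KO, 177 and 239 FPKM in H3.3K27M and 150 and 142 FPKM in H3.3WT. For both genes the 3 groups did not overlap, with Cbfa2t2_KO highest, H3.3K27M between and H3.3WT lowest. Their log2 changes in Cbfa2t2_KO were 0.99 ± 0.14 (adjusted p = 0.00207) for Psmb3 and 0.89 ± 0.14 (adjusted p = 0.00321) for Psmb4. In H3.3K27M they were 0.46 ± 0.18 (adjusted p = 0.0866) and 0.49 ± 0.20 (adjusted p = 0.0987). Psmb1 and Psmb2 had log2 changes of -0.10 to 0.03 over both lines.

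The catalytic genes of the beta ring differed among themselves. Psmb6, which encodes the subunit with caspase-like activity (chromosome 11, 70525367 to 70527858, forward strand), stood at 312 and 355 FPKM in Cbfa2t2_KO, 188 and 223 FPKM in H3.3K27M and 163 and 160 FPKM in H3.3WT. It rose in Cbfa2t2_KO (log2 change 1.04 ± 0.14, adjusted p = 0.00175), and its change in H3.3K27M was 0.34 ± 0.18 (adjusted p = 0.184). Both Cbfa2t2_KO libraries were higher than any other library. Psmb7, the subunit with trypsin-like activity, stood at 91.4 and 96.7 FPKM in Cbfa2t2_KO, 81.8 and 109 FPKM in H3.3K27M and 60.6 and 57.5 FPKM in H3.3WT, and rose in both lines (log2 change 0.66 ± 0.13, adjusted p = 0.00717, and 0.67 ± 0.19, adjusted p = 0.0319). The call of Psmb7 was lost without Cbfa2t2_KO replicate 2 in that line (0.0539), and in H3.3K27M without H3.3K27M replicate 2 or either H3.3WT library (up to 0.170) or with the trends on GC content, length and exon number removed (0.45, adjusted p = 0.0572). Psmb5, the subunit with chymotrypsin-like activity and the main target of proteasome inhibitors, stood at 221 and 256 FPKM in Cbfa2t2_KO, 178 and 244 FPKM in H3.3K27M and 244 and 244 FPKM in H3.3WT. Its groups overlapped, and its log2 change was -0.04 ± 0.14 in Cbfa2t2_KO (adjusted p = 0.867), with -0.23 ± 0.20 in H3.3K27M (adjusted p = 0.428). Processed pseudogenes of Psmb5, Psmb6 and Psmb7 are annotated but not listed in the tables, and how reads shared with them were counted is not known.

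The balance of the catalytic RNAs also differed between the lines when taken within each library, a ratio chosen after the values were seen and given as a description. The ratio of Psmb6 to Psmb5 was 1.41 and 1.39 in Cbfa2t2_KO, 1.06 and 0.916 in H3.3K27M and 0.669 and 0.656 in H3.3WT. The ratio of Psmb7 to Psmb5 was 0.412 and 0.377 in Cbfa2t2_KO, 0.460 and 0.445 in H3.3K27M and 0.248 and 0.235 in H3.3WT. In both ratios the 2 H3.3WT libraries were the lowest. A ratio within a library does not change when that library is scaled as a whole.

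Promoters are shown for members at the ends of this range, Psma5 and Psmc1 as genes that rose in both lines, Psmg3 as one that fell in both, and Psmb6 and Psmb5 as catalytic genes that differed in response. Each is the 250 bases before the gene's start in RefSeq, build GRCm38.p6, written 5′ to 3′ on the gene's strand, with matches to 3 motifs in capitals. The motifs, searched on both strands, were the antioxidant response element TGACNNNGC, the sequence that NFE2L1 and related factors bind, the CCAAT box CCAAT and the GC box GGGCGG, and no match of one overlapped another in these 5. The windows are chr3:108256676-108256925 (+) for Psma5, chr12:100109952-100110201 (+) for Psmc1, chr5:139826895-139827144 (-) for Psmg3, chr11:70525107-70525356 (+) for Psmb6 and chr14:54617996-54618245 (-) for Psmb5.
Psma5: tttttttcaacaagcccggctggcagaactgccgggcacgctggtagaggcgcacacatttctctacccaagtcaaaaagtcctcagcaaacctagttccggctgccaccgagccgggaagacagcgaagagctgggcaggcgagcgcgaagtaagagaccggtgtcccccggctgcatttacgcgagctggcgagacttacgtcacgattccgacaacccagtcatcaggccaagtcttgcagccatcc
Psmc1: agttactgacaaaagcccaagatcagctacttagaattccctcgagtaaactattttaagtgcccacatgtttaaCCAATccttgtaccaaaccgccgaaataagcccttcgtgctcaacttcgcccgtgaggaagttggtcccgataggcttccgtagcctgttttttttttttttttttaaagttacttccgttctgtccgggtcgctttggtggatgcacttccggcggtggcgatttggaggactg
Psmg3: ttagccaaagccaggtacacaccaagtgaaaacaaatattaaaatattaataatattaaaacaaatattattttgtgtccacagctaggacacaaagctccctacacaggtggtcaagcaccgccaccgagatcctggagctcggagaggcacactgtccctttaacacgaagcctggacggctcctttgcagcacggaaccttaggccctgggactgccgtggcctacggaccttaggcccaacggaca
Psmb6: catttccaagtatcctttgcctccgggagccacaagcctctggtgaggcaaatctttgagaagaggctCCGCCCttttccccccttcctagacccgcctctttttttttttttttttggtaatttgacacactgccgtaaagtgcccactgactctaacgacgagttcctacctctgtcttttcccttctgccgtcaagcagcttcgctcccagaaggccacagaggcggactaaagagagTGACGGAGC
Psmb5: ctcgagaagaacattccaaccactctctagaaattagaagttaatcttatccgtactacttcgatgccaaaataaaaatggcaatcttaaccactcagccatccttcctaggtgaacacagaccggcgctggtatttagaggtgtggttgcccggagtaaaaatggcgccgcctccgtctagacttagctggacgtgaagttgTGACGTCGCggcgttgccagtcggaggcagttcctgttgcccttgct
The Psmb6 window holds an antioxidant response element from 9 to 1 bases before the start and a GC box on the other strand from 182 to 177 bases before it. The Psmb5 window holds an antioxidant response element from 47 to 39 bases before the start, and the Psmc1 window a CCAAT box from 175 to 171 bases before it. None of the letters searched were in the windows of Psma5 and Psmg3. Promoters were matched for 40 of the 47 members. Of these 40 genes, 5 held the antioxidant response element (Psmb5, Psmb6, Psmc6, Psmd9 and Psmd12), 14 the CCAAT box and 22 the GC box. These genes have 43 promoters in the reference, of which 5, 14 and 23 held the 3 motifs in that order. Per promoter, the shares over all 32851 promoters in the reference were 10.2%, 33.8% and 32.7%. Of the 5 genes with the element, Psmb6 and Psmd12 rose in Cbfa2t2_KO, Psmd12 rose and Psmd9 fell in H3.3K27M, and Psmb5 and Psmc6 passed in neither line. A match describes the letters of the window and is not a measured binding site.

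The immunoproteasome genes were near the floor of the tables. Psmb9, which replaces Psmb6, stood at 0.687 and 0.743 FPKM in Cbfa2t2_KO, 0.600 and 0.463 FPKM in H3.3K27M and 0.729 and 0.632 FPKM in H3.3WT, and it overlaps Tap1. Psmb10, which replaces Psmb7, stood at 1.60 and 2.24 FPKM in Cbfa2t2_KO, 1.502 and 2.37 FPKM in H3.3K27M and 3.13 and 2.74 FPKM in H3.3WT. All Cbfa2t2_KO and H3.3K27M libraries lay below both H3.3WT libraries for Psmb10, but the log2 change of -0.44 ± 0.19 in Cbfa2t2_KO and -0.44 ± 0.21 in H3.3K27M did not pass (adjusted p = 0.102 and 0.152). Psmb9 and Psmb10 together made up 0.365% and 0.419% of the FPKM of the 5 catalytic genes in Cbfa2t2_KO, 0.468% and 0.490% in H3.3K27M and 0.819% and 0.725% in H3.3WT. The share was lower in both lines than in H3.3WT, at a ratio of means of 0.508 in Cbfa2t2_KO and 0.620 in H3.3K27M. Psmb6, which rose in Cbfa2t2_KO, and Psmb7, which rose in both lines, stand in the denominator of this share. The FPKM of Psmb9 and Psmb10 alone summed to 2.29 and 2.98 in Cbfa2t2_KO, 2.10 and 2.84 in H3.3K27M and 3.86 and 3.37 in H3.3WT, a ratio of means of 0.728 in Cbfa2t2_KO and 0.683 in H3.3K27M. By gene the ratio was 0.654 and 0.660 for Psmb10 but 1.05 and 0.781 for Psmb9. With 2 libraries a group, the exact two-sided permutation p is 0.33 for any such pair of groups that do not overlap, which is the smallest it can be. Of 22 genes of the interferon response and antigen presentation, 16 were listed and 10 tested. None of the 10 passed in either line by limma, while 1 in Cbfa2t2_KO and 2 in H3.3K27M had an unadjusted p under 0.05, and their median log2 change was -0.06 and -0.12. Microglia and leukocyte markers were listed for 2 of 11 genes, Cd68 and Tmem119, with a sum of 4.97 and 5.72 FPKM in Cbfa2t2_KO, 3.99 and 4.76 FPKM in H3.3K27M and 4.73 and 4.03 FPKM in H3.3WT. The near equal sums hide changes of opposite sign. Cd68 stood at 3.82 and 4.37 FPKM in Cbfa2t2_KO, 2.53 and 2.60 FPKM in H3.3K27M and 1.24 and 1.18 FPKM in H3.3WT and rose in both lines (log2 change 1.20, adjusted p = 0.00204, and 0.69, adjusted p = 0.0224), while Tmem119 fell in Cbfa2t2_KO (-0.89, adjusted p = 0.00732) and did not pass in H3.3K27M (-0.58, adjusted p = 0.0692). Ptprc, the leukocyte marker CD45, was not listed.

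In the ring of ATPases of the 19S particle, 4 of 6 genes rose in Cbfa2t2_KO and 3 of 6 in H3.3K27M, and none fell in either (1 in each line had an unadjusted p under 0.05 as lower). Psmc1, the ATPase Rpt2 whose tail opens the gate of the core (chromosome 12, 100110154 to 100123405, forward strand, 11 exons), stood at 88.5 and 81.2 FPKM in Cbfa2t2_KO, 100.04 and 119 FPKM in H3.3K27M and 41.6 and 47.4 FPKM in H3.3WT. Psmc5, the ATPase Rpt6, stood at 221 and 244 FPKM in Cbfa2t2_KO, 161 and 186 FPKM in H3.3K27M and 113 and 102 FPKM in H3.3WT. Psmc2, the ATPase Rpt1, stood at 36.1 and 35.7 FPKM in Cbfa2t2_KO, 36.4 and 41.6 FPKM in H3.3K27M and 23.8 and 25.4 FPKM in H3.3WT. In each of the 3 genes both lines lay above H3.3WT without overlap, with H3.3K27M the higher of them for Psmc1 and Cbfa2t2_KO for Psmc5. The log2 changes of Psmc1 were 0.92 ± 0.14 in Cbfa2t2_KO (adjusted p = 0.00258), with 1.28 ± 0.17 in H3.3K27M (adjusted p = 0.00257). Those of Psmc5 were 1.11 ± 0.14 (adjusted p = 0.00145) and 0.69 ± 0.17 (adjusted p = 0.0229), and those of Psmc2 were 0.53 ± 0.13 (adjusted p = 0.0194) and 0.64 ± 0.16 (adjusted p = 0.0237). The calls of Psmc5 and Psmc2 in H3.3K27M were each lost without H3.3K27M replicate 2, H3.3WT replicate 1 or H3.3WT replicate 2 (adjusted p up to 0.170 and 0.142), and that of Psmc2 in Cbfa2t2_KO without any 1 library (up to 0.0865). The fourth gene that rose in Cbfa2t2_KO was Psmc4 (Rpt3), with 69.75 and 73.0 FPKM in Cbfa2t2_KO, 65.4 and 68.9 FPKM in H3.3K27M and 56.5 and 51.3 FPKM in H3.3WT, and a log2 change of 0.40 ± 0.13 (adjusted p = 0.0482, named after its values were seen). Psmc4 lost its call under 9 of the 13 other ways of processing, among them without any 1 library (up to 0.197). Psmc3 stood at 100.4 and 110.5 FPKM in Cbfa2t2_KO, 86.1 and 109 FPKM in H3.3K27M and 131 and 136 FPKM in H3.3WT, which did not pass (log2 change -0.34 ± 0.13 in Cbfa2t2_KO, adjusted p = 0.0825).

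Of the 11 non-ATPase subunits of the 19S particle, 4 rose and 1 fell in Cbfa2t2_KO, and 2 rose and 3 fell in H3.3K27M. Psmd7 (Rpn8), the lid subunit that forms a dimer with the deubiquitinase Psmd14 (chromosome 8, 107580381 to 107588464, reverse strand), was the one that fell in both. It stood at 45.5 and 49.9 FPKM in Cbfa2t2_KO, 56.7 and 64.5 FPKM in H3.3K27M and 96.3 and 106 FPKM in H3.3WT. Both lines lay below H3.3WT without overlap, with log2 changes of -1.07 ± 0.13 in Cbfa2t2_KO (limma, adjusted p = 0.00151) and of -0.73 ± 0.17 in H3.3K27M (adjusted p = 0.0154). Under median-of-ratios scaling the second was -0.58 and did not pass (adjusted p = 0.0586), nor did it without H3.3WT replicate 1 or 2 (up to 0.122). Psmd14 itself stood at 29.1 and 24.3 FPKM in Cbfa2t2_KO, 31.2 and 36.5 FPKM in H3.3K27M and 24.02 and 28.3 FPKM in H3.3WT and passed in neither line. Within a library the ratio of Psmd7 to Psmd14 was 1.56 and 2.06 in Cbfa2t2_KO, 1.82 and 1.77 in H3.3K27M and 4.01 and 3.74 in H3.3WT.

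Psmd12 (Rpn5), another lid subunit, rose in both lines. It stood at 55.8 and 50.7 FPKM in Cbfa2t2_KO, 47.1 and 54.6 FPKM in H3.3K27M and 32.3 and 36.4 FPKM in H3.3WT (log2 change 0.62 ± 0.14, adjusted p = 0.0126, and 0.55 ± 0.17, adjusted p = 0.0434). Without 1 library its call was lost in 3 of 4 cases in each line (up to 0.0687 and 0.234), and kept only without H3.3WT replicate 2 in Cbfa2t2_KO and without H3.3K27M replicate 1 in H3.3K27M. The call in H3.3K27M was also lost with no filter (adjusted p = 0.0542), with eBayes without trend (0.0560) or with GC, length and exon trends removed (0.23, adjusted p = 0.189). Psmd2 (Rpn1), a scaffold of the base that receives ubiquitin and shuttle proteins, stood at 110.2 and 111 FPKM in Cbfa2t2_KO, 77.5 and 71.3 FPKM in H3.3K27M and 65.8 and 63.9 FPKM in H3.3WT. Psmd4 (Rpn10), a ubiquitin receptor, stood at 102 and 113 FPKM in Cbfa2t2_KO, 77.1 and 89.2 FPKM in H3.3K27M and 66.1 and 66.0 FPKM in H3.3WT. For Psmd2 and Psmd4 the groups did not overlap, and Cbfa2t2_KO was highest. Psmd2 rose in Cbfa2t2_KO by 0.76 ± 0.13 on the log2 scale (adjusted p = 0.00382), with 0.19 ± 0.16 in H3.3K27M (adjusted p = 0.392). Psmd4 rose by 0.69 ± 0.13 in Cbfa2t2_KO (adjusted p = 0.00628, and 0.0514 without Cbfa2t2_KO replicate 2), with 0.32 ± 0.16 in H3.3K27M (adjusted p = 0.176). Psmd3 (Rpn3), a lid subunit, stood at 72.9 and 104 FPKM in Cbfa2t2_KO, 64.2 and 61.7 FPKM in H3.3K27M and 62.0 and 47.3 FPKM in H3.3WT, with a wide spread within Cbfa2t2_KO and H3.3WT. It rose in Cbfa2t2_KO (log2 change 0.67 ± 0.20, adjusted p = 0.0355, lost without Cbfa2t2_KO replicate 2 or H3.3WT replicate 2, up to 0.211). Its change in H3.3K27M was 0.21 ± 0.18 (adjusted p = 0.408).

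Psmd1, Psmd8 and Psmd11 passed in H3.3K27M and not in Cbfa2t2_KO. Psmd1 (Rpn2), the other scaffold of the base, stood at 21.4 and 16.2 FPKM in Cbfa2t2_KO, 26.3 and 26.8 FPKM in H3.3K27M and 15.9 and 18.0 FPKM in H3.3WT, and rose in H3.3K27M (log2 change 0.62 ± 0.17, adjusted p = 0.0265). Psmd8 (Rpn12), a lid subunit, stood at 47.8 and 56.4 FPKM in Cbfa2t2_KO, 45.5 and 45.5 FPKM in H3.3K27M and 62.2 and 72.4 FPKM in H3.3WT, and fell in H3.3K27M (-0.55 ± 0.16, adjusted p = 0.0399). Psmd11 (Rpn6), a lid subunit that clamps the 19S particle to the core, stood at 23.4 and 22.5 FPKM in Cbfa2t2_KO, 16.5 and 13.2 FPKM in H3.3K27M and 22.5 and 23.4 FPKM in H3.3WT, and fell in H3.3K27M (-0.60 ± 0.18, adjusted p = 0.0380). Psmd11 was at the same level in Cbfa2t2_KO and H3.3WT, with both H3.3K27M libraries below. The falls of Psmd8 and Psmd11 did not pass under median-of-ratios scaling or quantile normalization, and all 3 calls were lost without either H3.3WT library or without H3.3K27M replicate 2 (up to 0.168 for Psmd1, 0.253 for Psmd8 and 0.180 for Psmd11), and those of Psmd1 and Psmd8 also without H3.3K27M replicate 1. The call of Psmd1 was also lost with GC, length and exon trends removed (0.28, adjusted p = 0.135), and that of Psmd8 with no filter (adjusted p = 0.0506) or with eBayes without trend (0.0525). Psmd6, Psmd13 and Psmd14 passed in neither line, with log2 changes of -0.36 to 0.31 in Cbfa2t2_KO and 0.02 to 0.36 in H3.3K27M.

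Levels were also summed over the genes of each part of the proteasome. The alpha ring summed to 429 and 427 FPKM in Cbfa2t2_KO, 425 and 520 FPKM in H3.3K27M and 320 and 344 FPKM in H3.3WT, at a ratio of means to H3.3WT of 1.29 in Cbfa2t2_KO and 1.42 in H3.3K27M. The beta ring summed to 1390 and 1570 FPKM in Cbfa2t2_KO, 1059 and 1348 FPKM in H3.3K27M and 1068 and 1106 FPKM in H3.3WT, at ratios of 1.36 and 1.11. The 6 ATPases summed to 542 and 562 FPKM in Cbfa2t2_KO, 477 and 559 FPKM in H3.3K27M and 386 and 387 FPKM in H3.3WT, at ratios of 1.43 and 1.34. In the alpha ring and the ATPase ring both lines lay above H3.3WT without overlap, while H3.3K27M overlapped H3.3WT in the beta ring. The 11 non-ATPases summed to 582 and 622 FPKM in Cbfa2t2_KO, 506 and 544 FPKM in H3.3K27M and 513 and 537 FPKM in H3.3WT, at ratios of 1.15 and 1.00, with overlap for H3.3K27M. The ratio of the core to the 19S particle, 14 genes over 17, was 1.62 and 1.69 in Cbfa2t2_KO, 1.51 and 1.69 in H3.3K27M and 1.54 and 1.57 in H3.3WT, so that all 6 libraries lay between 1.51 and 1.69. The exact permutation p was 0.33 for each pair without overlap. In H3.3K27M replicate 2, 38 of the 47 genes were higher than in replicate 1, against 42.3% of all genes, and its sums exceed those of replicate 1 throughout.

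**Figure D3:**
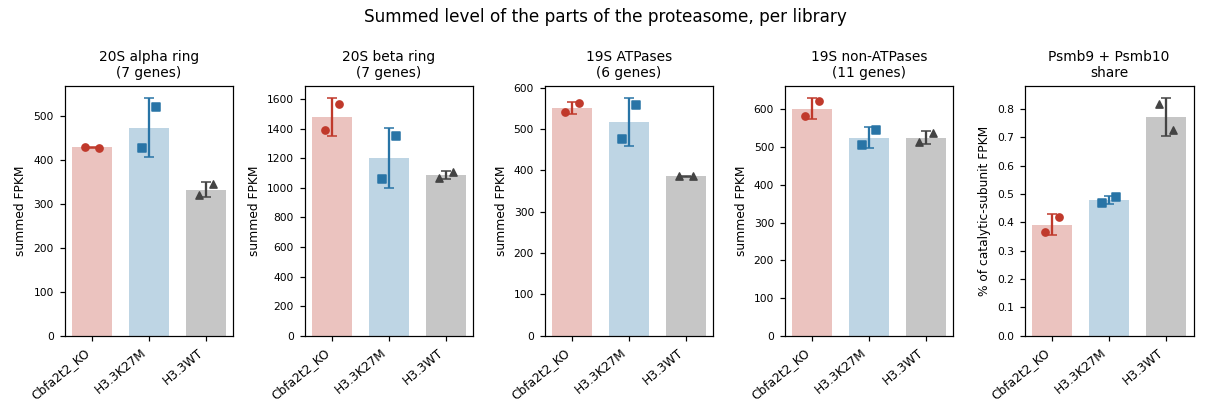
Summed FPKM of the genes of each part of the proteasome, and the share of Psmb9 and Psmb10 in the FPKM of the 5 catalytic genes in percent, per library. Bars are means, error bars SD (n = 2 libraries a group) and symbols single libraries, with Cbfa2t2_KO, H3.3K27M and H3.3WT from left to right. The ATPase sum is above H3.3WT in every Cbfa2t2_KO and H3.3K27M library, and the immunoproteasome share is below it.

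The assembly chaperones of the core split by gene. Psmg1 and Psmg2 encode a heterodimer that builds the alpha ring, and Psmg3 and Psmg4 another that acts with it. Psmg3 (chromosome 5, 139823592 to 139826885, reverse strand) stood at 11.96 and 14.5 FPKM in Cbfa2t2_KO, 10.9 and 14.9 FPKM in H3.3K27M and 32.9 and 29.0 FPKM in H3.3WT. It fell in Cbfa2t2_KO (log2 change -1.17 ± 0.16, adjusted p = 0.0018) as well as in H3.3K27M (-1.22 ± 0.19, adjusted p = 0.00449), and no library of either line came near H3.3WT. Over most of its length Psmg3 lies on the same strand as the annotated gene Gm26938, which is not listed in the tables, so reads of the 2 may have been split. Its partner Psmg4 stood at 51.5 and 54.2 FPKM in Cbfa2t2_KO, 46.8 and 62.9 FPKM in H3.3K27M and 58.1 and 66.4 FPKM in H3.3WT and passed in neither line. The ratio of Psmg3 to Psmg4 was 0.232 and 0.268 in Cbfa2t2_KO, 0.232 and 0.236 in H3.3K27M and 0.567 and 0.436 in H3.3WT. Psmg2 stood at 40.5 and 37.1 FPKM in Cbfa2t2_KO, 32.1 and 41.9 FPKM in H3.3K27M and 23.2 and 23.3 FPKM in H3.3WT, and rose in both lines (log2 change 0.71 ± 0.14, adjusted p = 0.00634, and 0.64 ± 0.18, adjusted p = 0.0341), the second lost without H3.3K27M replicate 2 or either H3.3WT library (up to 0.152) or with GC, length and exon trends removed (0.31, adjusted p = 0.0955). Psmg1 did not pass, at 0.42 ± 0.16 in Cbfa2t2_KO (adjusted p = 0.077), with 0.53 ± 0.19 in H3.3K27M (adjusted p = 0.0744).

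The chaperones of the 19S base did not rise. Psmd9 (p27) stood at 7.52 and 8.91 FPKM in Cbfa2t2_KO, 5.24 and 6.77 FPKM in H3.3K27M and 10.3 and 10.99 FPKM in H3.3WT. It fell in H3.3K27M (log2 change -0.74 ± 0.19, adjusted p = 0.0246), a call lost under median-of-ratios scaling, under quantile normalization and without H3.3K27M replicate 1 or either H3.3WT library (up to 0.140). Its change in Cbfa2t2_KO was -0.34 ± 0.16 (adjusted p = 0.142). Psmd5 and Psmd10, also known as S5b and gankyrin, passed in neither line, with log2 changes of -0.28 and 0.15 in Cbfa2t2_KO and -0.31 and 0.07 in H3.3K27M.

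Among the activators, Psme2, the beta subunit of PA28 (chromosome 14, 55587441 to 55591113, reverse strand, 11 exons), had the largest log2 change of all members in Cbfa2t2_KO. It stood at 20.7 and 14.9 FPKM in Cbfa2t2_KO, 14.4 and 17.5 FPKM in H3.3K27M and 5.51 and 6.70 FPKM in H3.3WT. Both lines lay at least at 14.4 FPKM, far above H3.3WT, with log2 changes of 1.39 ± 0.20 in Cbfa2t2_KO (limma, adjusted p = 0.00209), with 1.25 ± 0.19 in H3.3K27M (adjusted p = 0.00385). Psme2b (chromosome 11, 48945354 to 48946190, reverse strand) is a copy of Psme2 with a single exon, and reads of the pair may have been divided between them, so the level of each is uncertain. All 837 bases of Psme2b also lie within the annotated gene Gm12185 on the same strand. Gm12185 is not listed, and reads of Psme2b may have been split with it. Psme2b stood at 18.3 and 35.5 FPKM in Cbfa2t2_KO, 15.0 and 18.5 FPKM in H3.3K27M and 17.4 and 7.25 FPKM in H3.3WT, with wide spread within groups, and passed in neither line (log2 change 1.11 ± 0.40, adjusted p = 0.0618, and 0.52 ± 0.33, adjusted p = 0.272). The transcripts are 962 bases for Psme2 and 837 bases for Psme2b, so their sum in FPKM still depends on the division between these 2 genes to a lesser degree. It was 39.0 and 50.4 FPKM in Cbfa2t2_KO, 29.4 and 36.0 FPKM in H3.3K27M and 22.9 and 13.95 FPKM in H3.3WT. It exceeded H3.3WT in every library of both lines, at ratios of means of 2.42 and 1.77 (exact permutation p = 0.33).

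The other activators changed less. Psme1, the alpha subunit of PA28 and partner of Psme2, stood at 31.4 and 30.2 FPKM in Cbfa2t2_KO, 27.2 and 28.6 FPKM in H3.3K27M and 25.5 and 21.99 FPKM in H3.3WT, and did not pass (log2 change 0.36 ± 0.14, adjusted p = 0.0833, and 0.23 ± 0.17, adjusted p = 0.339). The ratio of Psme2 to Psme1 was 0.659 and 0.494 in Cbfa2t2_KO, 0.528 and 0.611 in H3.3K27M and 0.216 and 0.305 in H3.3WT. Psme3, which encodes the nuclear activator PA28 gamma, was the most abundant of the activators, with 92.3 and 91.3 FPKM in Cbfa2t2_KO, 79.3 and 76.8 FPKM in H3.3K27M and 109 and 113 FPKM in H3.3WT. All libraries of both lines lay below H3.3WT, and neither change passed (-0.27 ± 0.13, adjusted p = 0.138, and -0.50 ± 0.16, adjusted p = 0.0503). Psme4, the gene of PA200, stood at 20.6 and 11.1 FPKM in Cbfa2t2_KO, 19.8 and 16.8 FPKM in H3.3K27M and 8.85 and 11.6 FPKM in H3.3WT. It rose in H3.3K27M (log2 change 0.79 ± 0.19, adjusted p = 0.02, lost without H3.3K27M replicate 1 or H3.3WT replicate 1, up to 0.143), while the 2 Cbfa2t2_KO libraries straddled H3.3WT (0.54 ± 0.27, adjusted p = 0.152). Psmf1, the gene of PI31, stood at 11.2 and 11.8 FPKM in Cbfa2t2_KO, 9.57 and 8.63 FPKM in H3.3K27M and 15.2 and 13.1 FPKM in H3.3WT, and fell in H3.3K27M (-0.59 ± 0.18, adjusted p = 0.0428), a call lost under median-of-ratios scaling, under quantile normalization and without any 1 library (up to 0.230). Psmc3ip stood at 12.3 and 14.4 FPKM in Cbfa2t2_KO, 9.97 and 12.3 FPKM in H3.3K27M and 6.96 and 9.91 FPKM in H3.3WT, and rose in Cbfa2t2_KO (0.62 ± 0.20, adjusted p = 0.0412), a call lost without either Cbfa2t2_KO library or H3.3WT replicate 1 (up to 0.195) or with GC, length and exon trends removed (0.43, adjusted p = 0.0960).

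H3.3K27M was also compared directly with Cbfa2t2_KO, in a fit of all 6 libraries. Of 46 members none rose by limma (5 had an unadjusted p under 0.05 as higher) and 2 fell, while of all genes tested 8.07% passed, 3.18% as higher and 4.89% as lower. The 2 were Psmb6, with a log2 change of -0.70 ± 0.16 (adjusted p = 0.0374), and Psmd2, with -0.57 ± 0.14 (adjusted p = 0.0423), whose FPKM are given above. For both genes the libraries of the 2 lines did not overlap. Neither call held in the fit of the 4 libraries of these lines alone, nor under median-of-ratios scaling, nor without any 1 of those 4 libraries (adjusted p up to 0.249 and 0.241). For most members the data do not separate the 2 lines, which is not evidence that they were equal. Psma4, with 40.5 and 39.9 FPKM in Cbfa2t2_KO and 56.9 and 68.2 FPKM in H3.3K27M, had a log2 change of 0.62 ± 0.17 and missed the threshold (adjusted p = 0.0537, named after its values were seen).

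Beyond the Psm names, 22 of 23 listed genes of proteasome-associated proteins could be tested. Of these, 2 rose and 2 fell in Cbfa2t2_KO, and 2 rose and 1 fell in H3.3K27M. Over all genes tested, 13.1% rose and 21.5% fell in Cbfa2t2_KO, and 8.42% rose and 17.8% fell in H3.3K27M. The median log2 change of the 22 was -0.09 in Cbfa2t2_KO and 0.11 in H3.3K27M, beside -0.11 and -0.12 for all genes. Nfe2l1, the transcription factor of proteasome genes, stood at 17.3 and 18.1 FPKM in Cbfa2t2_KO, 11.6 and 7.57 FPKM in H3.3K27M and 24.5 and 24.7 FPKM in H3.3WT. It fell in Cbfa2t2_KO (log2 change -0.45 ± 0.14, adjusted p = 0.0366), further in H3.3K27M (-1.30 ± 0.21, adjusted p = 0.00479), and in H3.3K27M against Cbfa2t2_KO (-0.85 ± 0.20, adjusted p = 0.0373). The call in Cbfa2t2_KO was lost under median-of-ratios scaling (-0.33) and quantile normalization (-0.33) and without any 1 of its libraries (up to 0.125). It was also lost with eBayes without trend (adjusted p = 0.0503), in a fit of all 6 libraries (0.108) and with GC, length and exon trends removed (-0.27, adjusted p = 0.0893). The call against Cbfa2t2_KO was lost without either Cbfa2t2_KO library or H3.3K27M replicate 2 (up to 0.212) or in a fit of 4 libraries (0.0563). Ddi2, the protease that activates NFE2L1, stood at 6.36 and 4.89 FPKM in Cbfa2t2_KO, 6.64 and 4.36 FPKM in H3.3K27M and 9.16 and 8.86 FPKM in H3.3WT, and fell in Cbfa2t2_KO (-0.60 ± 0.18, adjusted p = 0.0336), a call lost under the same 2 scalings, in a fit of all 6 libraries (0.0603) and without Cbfa2t2_KO replicate 2 or either H3.3WT library (up to 0.164). The change of Ddi2 in H3.3K27M was of similar size and did not pass (-0.64 ± 0.22, limma, adjusted p = 0.0586). It passed there with robust eBayes (adjusted p = 0.0419) and with GC, length and exon trends removed (-0.45, adjusted p = 0.0342). RNA levels do not show how much NFE2L1 protein was active.

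Txnl1, a thioredoxin-like protein bound to the 19S particle, rose in both lines. It stood at 40.4 and 34.3 FPKM in Cbfa2t2_KO, 31.4 and 36.2 FPKM in H3.3K27M and 14.4 and 18.0 FPKM in H3.3WT (log2 change 1.16 ± 0.16, adjusted p = 0.00209, and 1.02 ± 0.18, adjusted p = 0.00613, the second 0.0547 without H3.3WT replicate 1). Uchl5, a deubiquitinase of the 19S particle, stood at 2.87 and 2.24 FPKM in Cbfa2t2_KO, 5.68 and 6.32 FPKM in H3.3K27M and 2.62 and 3.24 FPKM in H3.3WT. It was higher in H3.3K27M than in either other line, against H3.3WT by 0.83 ± 0.19 (adjusted p = 0.0161) and against Cbfa2t2_KO by 0.98 ± 0.19 (adjusted p = 0.0223). The first was lost without H3.3K27M replicate 2 or either H3.3WT library (up to 0.114) or with GC, length and exon trends removed (0.30, adjusted p = 0.135), and the second without either Cbfa2t2_KO library or H3.3K27M replicate 2 (up to 0.176). The other gene that rose in Cbfa2t2_KO was Vcp, the unfoldase p97 (0.49 ± 0.14, adjusted p = 0.0286, lost without any 1 library, up to 0.133, and with GC, length and exon trends removed, 0.0813). Nploc4, a cofactor of p97, was lower in H3.3K27M, at 37.2 and 31.9 FPKM, than in Cbfa2t2_KO, at 60.7 and 60.7 FPKM (-0.80 ± 0.15, adjusted p = 0.0198, lost without either Cbfa2t2_KO library or H3.3K27M replicate 2, up to 0.146). Vcp and Nploc4 were named after their values were seen.

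Ubb, a gene of polyubiquitin, stood at 768 and 851 FPKM in Cbfa2t2_KO, 656 and 737 FPKM in H3.3K27M and 578 and 570.1 FPKM in H3.3WT. Both lines lay above H3.3WT without overlap. Ubb rose in Cbfa2t2_KO (log2 change 0.49 ± 0.15, adjusted p = 0.0353), a call lost under quantile normalization (0.17), in a fit of all 6 libraries (adjusted p = 0.0559) and without any 1 library (adjusted p up to 0.198). It did not pass in H3.3K27M.

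The members are short genes, with a median transcript of 1819 bases against 3023 bases for all genes tested, while their GC content (49.7% against 50.6%) and exon number (7 against 7) were close to it. Where the trend of each library on GC content, length and exon number was removed, the median log2 change of the members was 0.12 in Cbfa2t2_KO and -0.01 in H3.3K27M. In that setting 16 members rose and 8 fell in Cbfa2t2_KO, and 9 rose and 9 fell in H3.3K27M. Of the members these are 34.8% and 17.4% in Cbfa2t2_KO, beside 15.7% and 26.8% of all genes, and 19.6% and 19.6% in H3.3K27M, beside 10.4% and 22.5% of all genes. The median of the members in H3.3K27M was thus near 0 in that setting, beside -0.13 for all genes, while Psma5, Psmc1, Psme2 and Psmg3 passed in both lines there too.

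**Figure D4:**
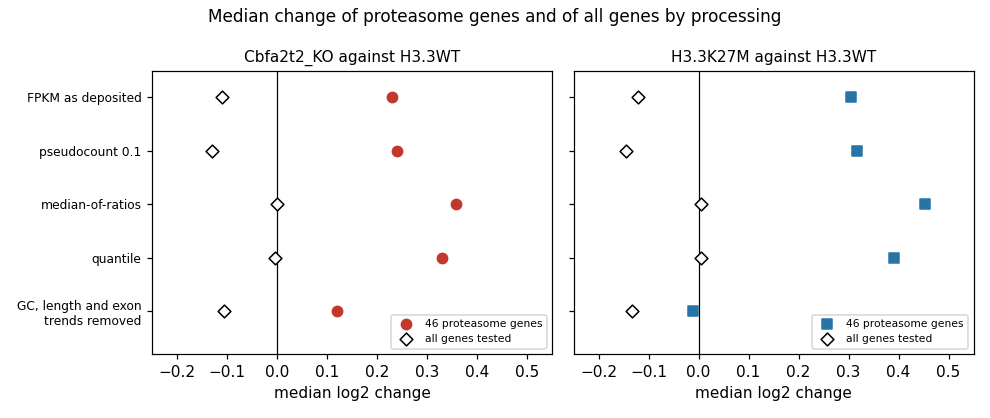
Median log2 change against H3.3WT of the 46 proteasome genes (filled) and of all genes tested (open) under 5 ways of processing, Cbfa2t2_KO on the left and H3.3K27M on the right. The median of the proteasome genes is above that of all genes in each, and it falls to 0.12 and -0.01 where GC content, length and exon number trends are removed.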

How the data were processed

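Each library was poly(A) RNA-seq of NE-4C cells, with RNA from Trizol extraction and mRNA taken on oligo(dT) beads, per the labels' protocols. The authors deposited FPKM in a table of Cbfa2t2_KO and H3.3WT and another of H3.3K27M and H3.3WT. The submitters' processing notes name the build GRCm38 and, without versions, DESeq, StringTie, HISAT2 and Trim Galore. Every listed gene reached 0.500 FPKM in at least 1 library, so lower genes are not seen. At most a share of 0.272 to 0.316 of low values fell on whole steps (tolerance 0.1), so depth is unknown and counting error is not estimated.

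Genes that averaged 1 FPKM or more in a comparison were transformed to log2(FPKM + 1), which understates changes of low genes, and tested with limma 3.58.1 in R 4.3.3 (eBayes with trend, Benjamini-Hochberg threshold 0.05). Comparisons with H3.3WT used 4 libraries, and that of H3.3K27M with Cbfa2t2_KO all 6. Errors of log2 changes are SE. Particle sums were compared by exact two-sided permutation. GENCODE vM21 gave coordinates, length, exons and GC content. The procedure was tested on simulated data. Figures were drawn with matplotlib 3.10.9.

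Members, lists, tests and alternatives were chosen with earlier results of these data known. Named were called members (at most 24, by size of change), Psmb5 to Psmb10, the activators, Psmf1, called members of each list (at most 4) and Nfe2l1. Alternatives covered pseudocount 0.1, no filter or at least 5 FPKM, 2 other scalings, other eBayes settings, other library sets, removal of GC, length and exon trends, and leaving out each library.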

Additional observations from a re-analysis of the deposited data

How the results depend on the processing

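No paired analysis was possible because the labels carry no replicate numbers that tie libraries of different groups. In Cbfa2t2_KO, 2 members fell as deposited and 8 with GC, length and exon trends removed, and leaving out 1 library gave 10 to 14 that rose. In H3.3K27M, median-of-ratios scaling left 1 that fell, and leaving out 1 library gave 4 to 12 that rose and 1 to 3 that fell. In H3.3K27M against Cbfa2t2_KO, 1 member fell with no filter or with eBayes without trend, 0 with median-of-ratios scaling or in a fit of 4 libraries, 5 with the trends removed and 0 to 1 with a library left out, and 1 rose with a filter of 5 FPKM, quantile normalization or robust eBayes. Under each of these last 3 settings 3 members also fell, against 2 as deposited. Changes of sign were followed for the named genes only, and other members with a change near 0 may also have turned. In Cbfa2t2_KO, Psmb5 turned sign (0.095 under median-of-ratios scaling, -0.14 to 0.070 with a library left out). Psmd1 did too (-0.12 with the trends removed, -0.053 to 0.32 with a library left out). So did Psmd11 (0.12 under median-of-ratios scaling, 0.13 under quantile normalization, 0.25 with the trends removed, -0.028 to 0.026 with a library left out). In H3.3K27M the named genes that turned sign were Psme2b (-0.060 to 1.10 with a library left out, lowest without H3.3WT replicate 2) and Ubb (-0.20 under quantile normalization). None of these had passed, and the cause was not tested. The summed levels and the immunoproteasome share kept their direction under the alternatives run for them. Under median-of-ratios scaling the ratio to H3.3WT was 1.48 in Cbfa2t2_KO and 1.32 in H3.3K27M for the 20S core, against 1.34 and 1.18 as deposited, and 1.39 and 1.28 for the 19S particle, against 1.27 and 1.14. With a library left out, the core was at 1.28 to 1.41 in Cbfa2t2_KO and 1.05 to 1.32 in H3.3K27M, the 19S particle at 1.23 to 1.30 and 1.08 to 1.21, and the share at 0.473 to 0.543 and 0.585 to 0.661. With 2 libraries a group and no counts, precision rests on the spread that limma pools over genes, and a group left with 1 library was assumed to vary like the others.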
